A study of Danio rerio with 6 samples.

Results

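The genes described here are the 50 whose exonic read level was strongly higher in fdx1b-/- zebrafish larvae than in their siblings. They were selected on the measured values themselves. A gene was kept when its level averaged at least 2 CPM (the count as a share of the library total, scaled to 1000000 counts) over the 6 libraries, when all 3 fdx1b-/- values lay above all 3 sibling values, and when log2((mean fdx1b-/- CPM + 0.5) / (mean sibling CPM + 0.5)) was at least 0.7. Of the 31388 genes in the count table, 19410 averaged 2 CPM or more and 57 met all 3 conditions. The rule also sets certain genes aside by name, and 7 of the 57 were among them (phgdh, pygl, atic, paics, mthfd1l, pomca and duox), which left 50 members. Because this contrast chose the members, their differences between genotypes are given as a description, with no test.

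The libraries came from whole larvae of the species Danio rerio at 120 hpf (5 dpf), sampled at the circadian time ZT03, with 3 pools per genotype and 20 larvae in each pool. One group was homozygous for a mutation in fdx1b, in the AB strain, and its larvae were recognised by their poor adaptation to a light background. The other group was their wild-type siblings at the same age. The columns of both groups carry a control label (CTR), and whether the larvae were untreated or received a vehicle is not given for these libraries in the sources used here. RNA was depleted of ribosomal RNA, copied with the strand kept and read as single ends. In every list below, values follow replicates 1, 2 and 3 of siblings and then of fdx1b-/- larvae. The replicate numbers name pools and were not used as pairs, and the labels do not say whether they mark any pairing.

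Fdx1b is a mitochondrial ferredoxin that passes electrons to the cytochrome P450 enzymes that make steroid hormones, and larvae without it lack cortisol, the glucocorticoid of fish. Cortisol is made in the interrenal gland and acts through the glucocorticoid receptor, a transcription factor that sets the level of many metabolic genes in liver, muscle and gut. The liver makes most plasma proteins and apolipoproteins and is a main site of xenobiotic, steroid and one-carbon metabolism.

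Total exonic counts ran from 18247332 in sibling replicate 2 to 49908095 in sibling replicate 1, and 3 counts correspond to 0.0601 to 0.164 CPM. No member had fewer than 10 counts in any library. An edgeR quasi-likelihood test across 26544 genes, with a Benjamini-Hochberg adjusted p of at most 0.01 and a log2 fold change of at least 0.25 in size, called 164 genes higher in fdx1b-/- larvae (0.618%) and 132 lower (0.497%), where the Wald test of DESeq2 called 440 and 445. These thresholds define a called gene throughout. At an unadjusted p under 0.05, the edgeR test had 2446 of the 26544 genes higher and 2754 lower. Counts at that level in the lists below are to be read beside these. Leaving out 1 pool at a time moved the number called higher to between 49 (without sibling replicate 1) and 280 (without sibling replicate 3), so the calls depend on single pools. Since fdx1b itself is not reported here, its level gives no check of the genotype labels. Marker genes of 10 organs and cell types were detected in both groups, with no marker at 0 in all libraries. Of 9 neuron markers, 1 had a log2 fold change above 0, and their median was -0.20. EdgeR and DESeq2 called 0 of them, and 0 were higher and 4 lower at an unadjusted p under 0.05. Their summed level was 910 to 1036 CPM in siblings and 823 to 918 CPM in fdx1b-/- larvae. In whole larvae, more cells of one type and more RNA per cell cannot be told apart, for any value given here.

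Of the 50 members, 43 were called higher by edgeR, beside 0.618% of all tested genes, a count that the selection itself favours. The groups do not overlap for any member by construction, a condition that 15.6% of the genes averaging 2 CPM or more met in the same direction. The members' log2 ratio ran from 0.72 (snx10a) to 2.4 (itln2), with a median of 0.85, beside a median of 0.0037 over all 19410 genes. For 16 members it was at least 1, and for 7 at least 1.5. In 27 members the lowest fdx1b-/- value was at least 1.5 times the highest sibling value. The 7 members that edgeR did not call were slc41a2a, SNORA32, both genes named Metazoa_SRP, si:dkey-242h9.3, si:dkeyp-73d8.6 and si:ch211-137i24.12.

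The members covered both low and high levels. Their mean level over the 6 libraries had a median of 14 CPM, beside 16.7 CPM for all genes over the same floor, with 21 members under 10 CPM and 5 over 100 CPM. Their exons were somewhat shorter, with a median of 1872 bases beside 2430. Of 44 members found by name in the RefSeq gene table, which is of another assembly than the counts, 4 were on chromosome 23 and the others were spread so that 20 chromosomes held at least 1.

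**Figure D1:**
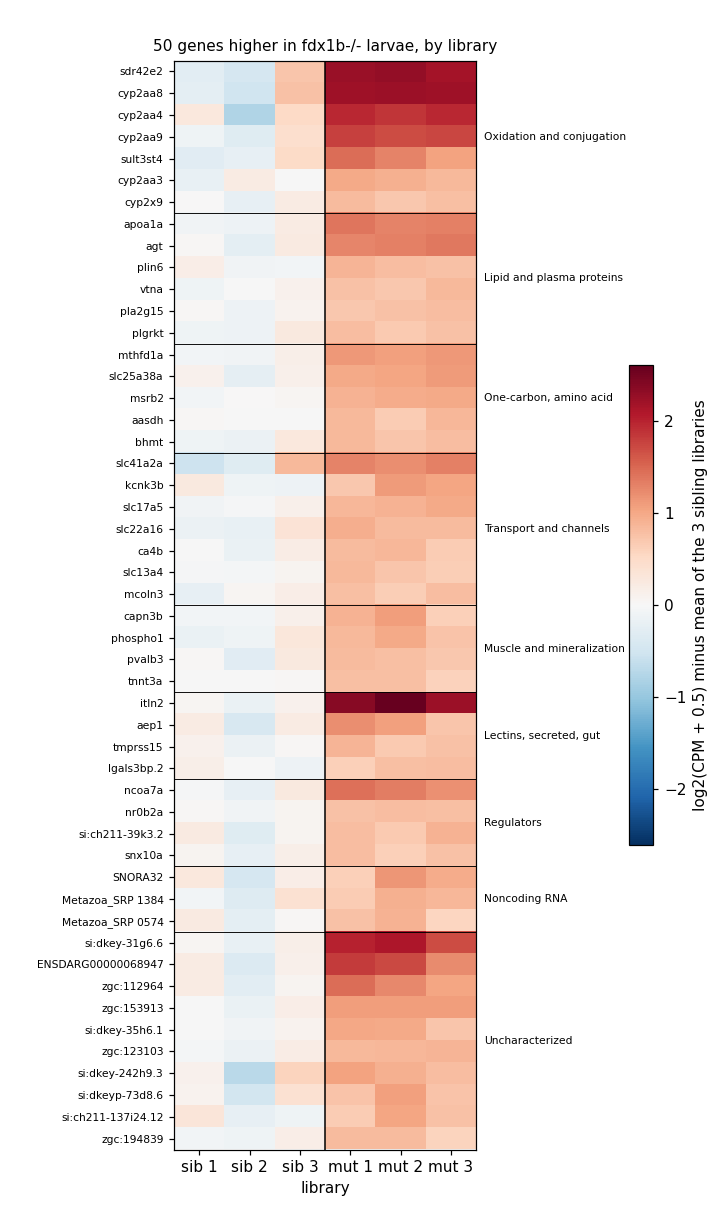
Log2(CPM + 0.5) of the 50 members (rows, grouped by role) in each of the 6 libraries (columns), with the mean of the 3 sibling libraries subtracted per gene; red is above and blue below that mean. All 3 fdx1b-/- columns are red for every gene, as the selection requires, while sibling replicate 3 is warmer than sibling replicate 2 in most rows.

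Sibling replicate 3 stood closer to the fdx1b-/- pools than the other siblings did in most members. It held the highest sibling value in 37 of 50 members (74.0%), beside 35.1% of all 19410 genes and 53.8% of the 3025 genes whose groups did not overlap in this direction. Sibling replicate 2, the smallest library, held the lowest sibling value in 38 members (76.0%), beside 43.9% of all genes and 65.9% of those 3025. On a log2(CPM + 0.5) scale where 0% is the mean of sibling replicates 1 and 2 and 100% is the mean of the fdx1b-/- pools, sibling replicate 3 lay at a median of 22.6% over the members. Siblings also scattered more than mutants: the median coefficient of variation was 16.2% in siblings and 7.26% in fdx1b-/- larvae, beside 7.35% and 4.98% over all genes. This coefficient was larger in siblings for 44 of 50 members, and the like share over all genes was not counted.

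A mirror image of the rule, with every fdx1b-/- value below every sibling value and a log2 ratio of -0.7 or less, was met by 67 genes. Sibling replicate 3 was the lowest sibling, that is the one nearest to the mutants, in 21 of them (31.3%). A selection that demands non-overlapping groups acts on the spread within them, so these shares are a description of the libraries; the part of pool differences in the members' values was not tested. Without sibling replicate 3, 67 genes would meet the rule, 49 of them members, with a median log2 ratio of 0.89 over the 67. Without sibling replicate 2, 39 genes would meet it, 36 of them members.

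**Figure D2:**
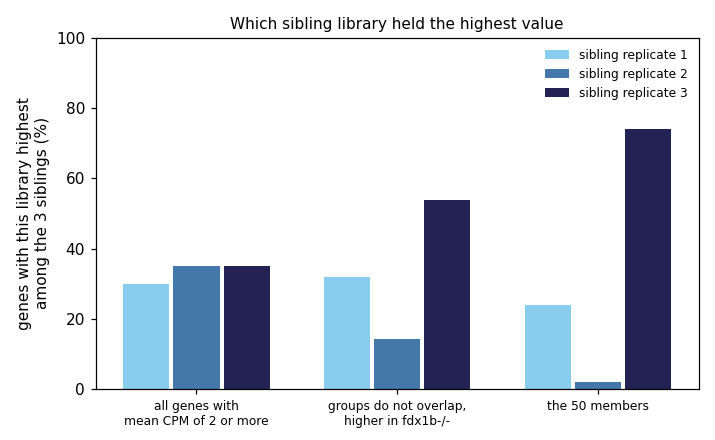
Share of genes (vertical axis, %) in which each of the 3 sibling libraries held the highest sibling CPM, for all 19410 genes, for the 3025 genes with every fdx1b-/- value above every sibling value, and for the 50 members. Sibling replicate 3 rises from 35.1% to 53.8% and 74.0% across the 3 sets, and sibling replicate 2 drops from 35.1% to 14.3% and 2.0%.

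Genes of oxidation and conjugation held the largest differences as a group. The 7 members were 4 cytochrome P450 genes of the fish family CYP2AA (cyp2aa3, cyp2aa4, cyp2aa8 and cyp2aa9), the P450 gene cyp2x9, the short-chain dehydrogenase gene sdr42e2 and the sulfotransferase gene sult3st4. Enzymes of these classes oxidize small lipophilic molecules, steroids and foreign compounds among them, or couple them to sulfate for excretion. Their log2 ratios ran from 0.76 to 2.13, with a median of 1.70.

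The level of sdr42e2 was 1.86, 1.59 and 4.17 CPM in siblings and 12.9, 13.4 and 12.2 CPM in fdx1b-/- larvae, a mean 5.05-fold higher. Sibling replicate 3 stood far above both other siblings, and the mutant pools were close to each other. For cyp2aa8 the values were 9.16, 7.56 and 18.9 CPM in siblings and 52.6, 53.1 and 52.7 CPM in fdx1b-/- larvae, or 4.44-fold. Its mutant pools were nearly equal, whereas sibling replicate 3 again stood above the other siblings. The cyp2aa4 gene had 4.77, 2.03 and 5.77 CPM in siblings and 16.4, 15.4 and 16.4 CPM in fdx1b-/- larvae. Here sibling replicate 2 was the low one. The cyp2aa9 values were 27.7, 24.1 and 40.9 CPM in siblings and 104, 99.3 and 101 CPM in fdx1b-/- larvae, with sibling replicate 3 again the highest sibling. Per kilobase of exon, cyp2aa8 was the highest of the 4 in fdx1b-/- larvae at 32.2 CPM per kb, followed by cyp2aa9 at 11.8, cyp2aa4 at 6.69 and cyp2aa3 at 2.82. The names of cyp2aa4 and cyp2aa8 are those of the study, and a newer name table exchanges them.

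The sulfotransferase gene sult3st4 had 1.54, 1.64 and 3.02 CPM in siblings and 6.28, 5.62 and 4.66 CPM in fdx1b-/- larvae. Sibling replicate 3 lay 49.5% of the way from the other siblings to the mutants. The remaining P450 members were cyp2aa3 (log2 ratio 0.91), from 2.32 ± 0.40 CPM in siblings to 4.79 ± 0.24 in fdx1b-/- larvae (SD, n = 3), and cyp2x9 (0.76), from 15.7 ± 2.38 to 26.8 ± 1.20. In 6 of these 7 genes sibling replicate 3 was the highest sibling, and its median position was 36.5%, the largest of the role groups. With sibling replicate 3 left out the log2 ratio of sdr42e2 was 2.58, that of cyp2aa8 2.59, that of cyp2aa4 2.09 and that of cyp2aa9 1.95.

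The difference in the CYP2AA family was not shared evenly by its genes. The other measured genes of the family, cyp2aa1, cyp2aa2, cyp2aa7, cyp2aa11 and cyp2aa12, had log2 fold changes between 0.04 (SE 0.06) and 0.34 (SE 0.08), and edgeR called 0 of the 5, with 3 at an unadjusted p under 0.05 and 1 called by DESeq2. The level of cyp2aa1, which RefSeq places next to cyp2aa9, was 28.5, 22.0 and 28.7 CPM in siblings and 33.5, 34 and 33.6 CPM in fdx1b-/- larvae, so its groups did not overlap but stood much closer. That of cyp2aa12 was 37.8, 43.2 and 39.7 CPM in siblings and 41.5, 40.3 and 41.8 CPM in fdx1b-/- larvae, and there the groups overlapped. In the RefSeq order of chromosome 23 the genes run cyp2aa12, cyp2aa7, cyp2aa11, cyp2aa4, zgc:101048, cyp2aa8, cyp2aa9, cyp2aa1, cyp2aa2 and cyp2aa3, so the 4 members were not all neighbours. This order uses RefSeq symbols, and whether these follow the study's or the exchanged names for cyp2aa4 and cyp2aa8 was not checked. The deposited exon length of cyp2aa9 is 8626 bases, well above the 1640 of cyp2aa8. Reads were counted where they mapped uniquely, neighbouring copies of near-identical genes can exchange reads, and the split of reads among these genes is uncertain. Over all 51 tested P450 genes of families 1 to 4, edgeR called 5 higher and 0 lower, and all 5 were members. At an unadjusted p under 0.05, 20 P450 genes were higher, 15 of them among the 46 that are no members, and 2 were lower. DESeq2 called 7 higher, 2 of them no members, and 1 lower. Of 47 sulfotransferase and glucuronosyltransferase genes, 4 were called higher and 0 lower. Beside sult3st4 these were 3 loci of the glucuronosyltransferase genes ugt5b2 and ugt5b3, with log2 fold changes of 0.33 and nearly equal counts at each locus, so that they are not separate measurements. DESeq2 called 12 genes of this list higher and 0 lower. At an unadjusted p under 0.05, 22 were higher and 4 lower, and the list's median log2 fold change was 0.23.

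**Figure D3:**
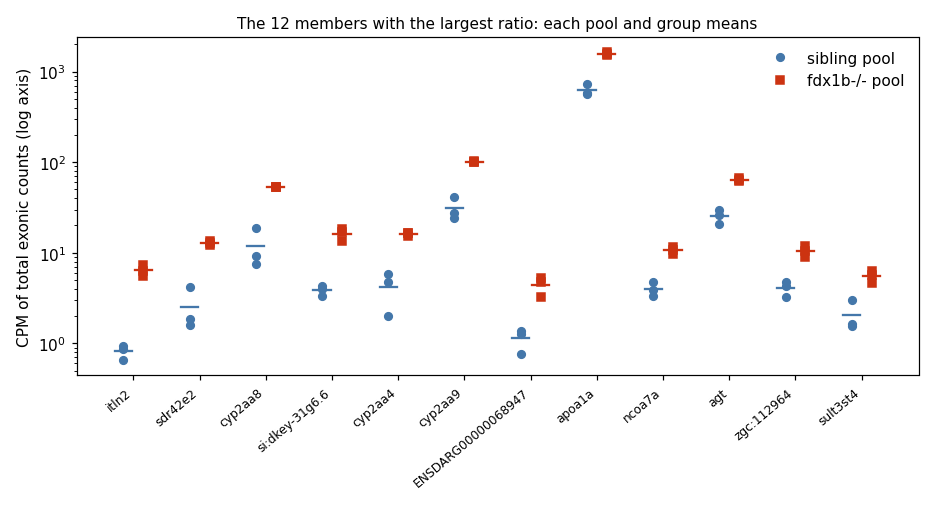
Level in CPM (log axis) of the 12 members with the largest log2 ratio, with each of the 3 sibling pools (circles) and 3 fdx1b-/- pools (squares) and the mean of each group (short lines). No mutant square overlaps a sibling circle of the same gene, and the isolated upper circle of sdr42e2, cyp2aa8 and sult3st4 is sibling replicate 3.

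Among plasma and lipid proteins, the gene of the main protein of high-density lipoprotein, apoa1a, was by far the most abundant member. Its level was 584, 569 and 722 CPM in siblings and 1637, 1530 and 1550 CPM in fdx1b-/- larvae, 2.52-fold higher, and per kilobase it went from 644 to 1621 CPM per kb. Sibling replicate 3 was the highest sibling. The second gene for this protein, apoa1b, was the more abundant per kilobase in both groups, at 2270, 2356 and 2604 CPM in siblings and 2794, 2545 and 2786 CPM in fdx1b-/- larvae. Those groups overlapped, and its log2 fold change of 0.17 (SE 0.06) was not called. The share of apoa1a in the summed CPM of both genes, not scaled by length, was 20.5%, 19.5% and 21.7% in siblings and 36.9%, 37.5% and 35.7% in fdx1b-/- larvae, higher in each mutant pool than in any sibling pool.

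Angiotensinogen (agt), the precursor that renin cuts to start the angiotensin pathway, had 25.9, 21 and 29.7 CPM in siblings and 61.9, 63.1 and 66.1 CPM in fdx1b-/- larvae. Vitronectin (vtna), an adhesive plasma protein, went from 25.5 ± 2.03 to 43.9 ± 2.11 CPM (SD, n = 3). Its paralogue vtnb was also called higher, with a log2 fold change of 0.44 (SE 0.06). The lysosomal phospholipase gene pla2g15, which is related to the plasma enzyme lcat, went from 64.9 ± 5.20 to 110.1 ± 4.46 CPM, whereas lcat itself had a log2 fold change of 0.14 (SE 0.12). The lipid droplet coat protein gene plin6 went from 4.16 ± 0.49 to 7.69 ± 0.37 CPM.

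The sixth gene of this group, plgrkt, carries the name of a plasminogen receptor but its counts were nearly those of bhmt. The level of plgrkt was 489, 479 and 625 CPM in siblings and 917, 847 and 894 CPM in fdx1b-/- larvae, and bhmt made up 92.8% to 97.4% of it in every library. After bhmt was subtracted, 27.5, 34.3 and 27.4 CPM were left in siblings and 24.3, 26.2 and 25.7 CPM in fdx1b-/- larvae (log2 ratio -0.22), so the remainder was not higher in the mutant pools. The value of plgrkt is therefore not read as a measurement separate from that of bhmt. The counts over members given here still include both genes as separate entries. The RefSeq table, of another assembly, places the genes apart, and the gene model of the build used for the counts was not checked.

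Wider lists of the same kind held genes called in both directions, and the plasma protein list leaned higher. Of 78 tested genes for plasma proteins of coagulation, complement and protease inhibition, 10 were called higher, 8 of them no members, and 3 lower, and the list's median log2 fold change was 0.12 beside -0.0028 over all tested genes. At an unadjusted p under 0.05, 33 of the 78 were higher and 7 lower, and DESeq2 called 18 higher and 5 lower. Of the 76 that are no members, 56 had a log2 fold change above 0. Outside the members the largest called rises in the plasma protein list were c8a (0.59, SE 0.06) and ambp (0.56, SE 0.06), a complement subunit and a protease inhibitor precursor. The largest called fall was hpx, hemopexin, the haem scavenger of plasma, at -2.15 (SE 0.30). Of 54 genes of lipoproteins and plasma lipid transport, 4 were called higher, namely apoa1a, pla2g12b (0.64, SE 0.09), apom (0.61, SE 0.07) and apoeb (0.52, SE 0.07), and apoa4b.3 was called lower (-0.94, SE 0.11). At an unadjusted p under 0.05, 13 of the 54 were higher and 11 lower, and DESeq2 called 7 higher and 3 lower. The summed level of 8 liver marker genes was 2771 to 3509 CPM in siblings and 4008 to 4089 CPM in fdx1b-/- larvae, with 1 called higher (ambp) and 1 lower (ahsg1). Abundant genes weigh most in this sum: mean apoa2 went from 1448 to 1973 CPM and mean tfa from 1010 to 1325 CPM. By contrast, fabp10a went from 314 to 290 CPM and cp from 89.7 to 92.8 CPM. Of the 8 markers, 6 had a log2 fold change above 0. The part of liver RNA share in the levels of the liver members was not tested.

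One-carbon and amino acid genes formed a group of 5, with log2 ratios from 0.78 to 1.1. The cytosolic folate enzyme gene mthfd1a, whose protein makes the formyl-folate used in purine synthesis, had 24.7, 24.2 and 29 CPM in siblings and 56.9, 54.7 and 57.1 CPM in fdx1b-/- larvae. Sibling replicate 3 was slightly above the others, and the mutant pools were more than 1.5 times any sibling. Counts of mthfd1a were 0.328 to 0.343 of those of pygl in every library; whether reads are shared between them was not tested. The mitochondrial carrier gene slc25a38a, which in humans brings glycine in for haem synthesis, had 3.53, 2.69 and 3.62 CPM in siblings and 6.95, 7.19 and 7.55 CPM in fdx1b-/- larvae.

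Betaine-homocysteine methyltransferase (bhmt), which remakes methionine from homocysteine in liver, was the second most abundant member per kilobase, at 337 CPM per kb in siblings and 579 in fdx1b-/- larvae. Its values were 462, 445 and 597 CPM in siblings and 893, 821 and 868 CPM in fdx1b-/- larvae. Sibling replicate 3 lay 43.0% of the way to the mutants. The methionine sulfoxide reductase gene msrb2 was unusually even within groups, at 9.24, 9.81 and 10.1 CPM in siblings and 18.6, 19.4 and 19.6 CPM in fdx1b-/- larvae. Its 3 measured relatives msrb1, msrb1a and msrb3 had log2 fold changes of -0.04, -0.21 and -0.07. EdgeR and DESeq2 called 0 of them, and 1 was lower at an unadjusted p under 0.05.

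The fifth gene, aasdh, which carries the name of aminoadipate-semialdehyde dehydrogenase, had 5.71, 5.54 and 5.59 CPM in siblings and 10.5, 9.13 and 10.7 CPM in fdx1b-/- larvae. RefSeq places it on chromosome 20 in a short run with ppat and paics, both of which act in purine synthesis. In that run ppat, the gene for the enzyme of the committed step, had 19.8, 17.3 and 22.1 CPM in siblings and 30.5, 30.8 and 29.9 CPM in fdx1b-/- larvae, and was called higher (edgeR adjusted p = 0.0018, log2 fold change 0.61). The gene between ppat and aasdh, si:dkeyp-117h8.4, and both genes on the far side of aasdh were not called. Over all members, 121 tested non-member genes lay within 2 protein-coding genes on either side in the RefSeq order, and ppat was the only one called higher (0.826%), with 1 called lower (0.826%) and a median log2 fold change of 0.06.

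At an unadjusted p under 0.05, 12 of 37 genes of folate one-carbon metabolism and the methionine cycle were higher and 5 lower. DESeq2 called 7 higher and 1 lower, and edgeR called 5 higher and 0 lower. The 5 were mthfd1a, bhmt, mthfd1l (2.64, SE 0.17), which the rule sets aside by name, sardh (0.50, SE 0.06), a sarcosine dehydrogenase, and gldc (0.49, SE 0.06), the glycine-cleaving subunit of the glycine cleavage system. The other 32 did not pass the test, and the list's median log2 fold change was 0.06.

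Transporters and channels made up 7 members of unlike function. The magnesium transporter gene slc41a2a had 0.681, 0.877 and 2.57 CPM in siblings and 3.69, 3.43 and 3.72 CPM in fdx1b-/- larvae. Sibling replicate 3 lay 75.1% of the way from the other siblings to the mutants, and edgeR did not call this gene. Without that pool its log2 ratio was 1.69 in place of 1.13. The potassium channel gene kcnk3b had 2.12, 1.53 and 1.5 CPM in siblings and 3.1, 4.22 and 3.97 CPM in fdx1b-/- larvae, and here sibling replicate 3 was the lowest sibling.

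The other 5 had log2 ratios from 0.73 to 0.91. The lysosomal sialic acid exporter gene slc17a5 went from 18.5 ± 1.56 to 35.2 ± 1.75 CPM (SD, n = 3). The organic cation and carnitine transporter gene slc22a16 went from 21.9 ± 4.98 to 39.6 ± 1.97 CPM, with sibling replicate 3 at 27.6 CPM above the other siblings. The membrane carbonic anhydrase gene ca4b went from 13.5 ± 1.76 to 23.6 ± 1.71 CPM, and the sodium-sulfate cotransporter gene slc13a4 from 11.7 ± 0.54 to 20.0 ± 1.46 CPM. The endolysosomal cation channel gene mcoln3 went from 7.01 ± 1.05 to 12 ± 0.78 CPM.

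Several relatives of the solute carrier members fell. In the organic ion transporter family SLC22, slc22a2, slc22a6l, slc22a7b.1 and slc22a7b.2 were called lower, with log2 fold changes from -0.88 to -1.42, and slc22a31 was called higher (0.58, SE 0.07). In the SLC13 family, slc13a1 (-0.57, SE 0.08) and slc13a3 (-0.72, SE 0.10) were called lower, against 0.76 (SE 0.08) for slc13a4. Of 424 tested solute carrier genes, 9 were called higher and 9 lower (2.12% each), where DESeq2 called 20 higher and 28 lower. At an unadjusted p under 0.05, 53 were higher and 96 lower. The largest change in the list was a fall in the urea transporter gene slc14a2 (-2.24, SE 0.11). The largest rise outside the members was slc43a2b (0.62, SE 0.07). At an unadjusted p under 0.05, 19 of 81 lysosomal genes were higher and 2 lower. DESeq2 called 8 higher and 1 lower, and edgeR called 6 higher and 0 lower. The 6 were the members slc17a5, mcoln3 and pla2g15 together with ctsla (0.65, SE 0.08), lgmn (0.48, SE 0.08) and npc1 (0.37, SE 0.05), which encode a protease, another protease and a cholesterol exporter.

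Skeletal muscle and mineralization genes gave 4 members. The muscle calpain gene capn3b had 8.94, 8.99 and 10.4 CPM in siblings and 18.2, 20.6 and 14.7 CPM in fdx1b-/- larvae, and fdx1b-/- replicate 3 was the lowest mutant. The phosphatase gene phospho1, which starts mineral deposition in bone matrix, had 14.5, 15.1 and 20.3 CPM in siblings and 29.9, 33.1 and 28 CPM in fdx1b-/- larvae, with sibling replicate 3 well above the other siblings. The calcium buffer gene pvalb3 had 13.6, 10.7 and 16.0 CPM in siblings and 23.8, 23.2 and 21.8 CPM in fdx1b-/- larvae.

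The gene of fast skeletal troponin T, tnnt3a, varied little among siblings. It had 101, 101 and 104 CPM in siblings and 176, 177 and 155 CPM in fdx1b-/- larvae, with fdx1b-/- replicate 3 lowest among the mutants. Its paralogue tnnt3b had a log2 fold change of 0.25 (SE 0.06) and was not called. The other parvalbumin genes measured ran from -0.24 (pvalb8) to 0.27 (pvalb2). Of 71 sarcomere and calcium handling genes, edgeR called 5 higher, the members capn3b, pvalb3 and tnnt3a with myhb (0.50, SE 0.08) and casq1b (0.39, SE 0.06), a myosin heavy chain and calsequestrin. It called 0 lower, where 33 were higher and 5 lower at an unadjusted p under 0.05 and DESeq2 called 17 higher and 1 lower.

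General muscle markers, none of them a member, stood higher too. All 17 had a log2 fold change above 0, with a median of 0.24, beside 0.73 to 0.91 for the 4 members. EdgeR called 0 of the 17, 14 were higher at an unadjusted p under 0.05, and DESeq2 called 7. Their summed level was 26225 to 30259 CPM in siblings and 32169 to 35107 CPM in fdx1b-/- larvae. The part of muscle RNA share in their levels was not tested. The microRNA gene mir2192 overlaps pvalb3 in RefSeq, and its values were 1.62, 1.21 and 1.72 CPM in siblings and 2.29, 3.16 and 2.5 CPM in fdx1b-/- larvae. It was not called, and the strand used in counting is not given, so reads of the pair cannot be told apart.

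Secreted lectins and gut proteins gave 4 members and the largest ratio of all. Intelectin 2 (itln2), of a family of lectins that bind microbial sugars, had 0.862, 0.658 and 0.924 CPM in siblings and 6.28, 7.41 and 5.6 CPM in fdx1b-/- larvae, a 7.89-fold difference. All siblings were under 1 CPM and close together. The other intelectin genes, itln1 at each of its loci, itln3 and itln4, had log2 fold changes from -0.46 (SE 0.23) to 0.65 (SE 0.36). EdgeR and DESeq2 called 0 of these 4, and 0 had an unadjusted p under 0.05. Among them itln3 had 5.09, 5.10 and 5.24 CPM in siblings and 4.29, 4.51 and 5.14 CPM in fdx1b-/- larvae.

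The aerolysin-like gene aep1, for a protein related to bacterial pore-forming toxins, had 12.7, 8.06 and 12.6 CPM in siblings and 25.9, 23.3 and 18.2 CPM in fdx1b-/- larvae. Sibling replicate 2 was the low sibling and fdx1b-/- replicate 3 the low mutant. Its relative jac10 had a mean of 1.81 CPM, just under the floor of the rule, and a log2 ratio of 1.22; it was not called. Enteropeptidase (tmprss15), which activates trypsin in the gut, went from 7.15 ± 0.72 to 12.6 ± 0.99 CPM (SD, n = 3). The galectin-3-binding protein gene lgals3bp.2 had 2.04, 1.75 and 1.57 CPM in siblings and 2.99, 3.43 and 3.46 CPM in fdx1b-/- larvae, with sibling replicate 3 lowest. Of 30 tested secreted lectin and defence genes, edgeR called 3 higher and 0 lower, and all 3 were members. DESeq2 called 6 higher and 0 lower. At an unadjusted p under 0.05, 10 were higher, 7 of them among the 27 that are no members, and 1 was lower. The 11 markers of exocrine pancreas, trypsinogen among them, summed to 11611 to 13546 CPM in siblings and 10151 to 11771 CPM in fdx1b-/- larvae. EdgeR called 0 of the 11, 6 were lower at an unadjusted p under 0.05, and DESeq2 called 4 lower. Among 9 intestine markers, fabp1b.1 (0.44, SE 0.07) was called higher and apoa4b.3 lower. The 9 leukocyte markers summed to 70.6 to 77.8 CPM in siblings and 72.3 to 73.1 CPM in fdx1b-/- larvae.

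A mixed group of 4 members held genes of transcription and trafficking together with si:ch211-39k3.2. Nuclear receptor coactivator 7 (ncoa7a) had 3.85, 3.34 and 4.82 CPM in siblings and 11.6, 10.7 and 9.7 CPM in fdx1b-/- larvae, whereas its paralogue ncoa7b had a log2 fold change of -0.12 (SE 0.07). In RefSeq the gene cndp1 overlaps ncoa7a. Mean cndp1 went from 38.5 CPM in siblings to 49.2 CPM in fdx1b-/- larvae (log2 fold change 0.35, SE 0.06), and it was not called. Whether reads are shared between ncoa7a and cndp1 was not tested. The orphan nuclear receptor SHP (nr0b2a), which in mammals represses bile acid synthesis, had 27.8, 25.6 and 28.5 CPM in siblings and 46.5, 48.2 and 47.2 CPM in fdx1b-/- larvae. Its scatter was small within both groups. At an unadjusted p under 0.05, 2 of 65 tested nuclear receptor genes were higher and 8 lower. DESeq2 called 2 higher and 1 lower, and edgeR called nr0b2a higher and 0 lower. Its relative nr0b2b had a log2 fold change of 0.38 (SE 0.34). The endosomal sorting gene snx10a had 2.99, 2.36 and 3.2 CPM in siblings and 5.34, 4.61 and 5.12 CPM in fdx1b-/- larvae, the smallest ratio of the 50, and si:ch211-39k3.2, which RefSeq names serf2a, had a log2 ratio of 0.78. Of 39 circadian clock genes edgeR called 1 lower (tefb, -0.28, SE 0.05) and 0 higher, where DESeq2 called 2 higher and 5 lower. At an unadjusted p under 0.05, 5 were higher and 12 lower.

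Noncoding RNA genes gave 3 members. SNORA32, a small nucleolar RNA that guides modification of other RNAs, had 22, 13.1 and 20.2 CPM in siblings and 27.8, 40.6 and 35.6 CPM in fdx1b-/- larvae and came after apoa1a and bhmt per kilobase, at 149.9 CPM per kb in siblings and 282 in fdx1b-/- larvae. The more abundant of the genes annotated as RNA of the signal recognition particle had 12.8, 10.6 and 17.9 CPM in siblings and 21.5, 26.1 and 25.0 CPM in fdx1b-/- larvae. The other went from 4.71 ± 0.86 to 8.17 ± 1.05 CPM (SD, n = 3). None of the 3 was among the 43 members that edgeR called. Such short RNAs exist in many copies, and the share of their reads that map to one place was not tested.

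The other 10 members carry names that describe no product. The largest ratio among them was that of si:dkey-31g6.6, with 4.03, 3.34 and 4.34 CPM in siblings and 17, 18.2 and 13.6 CPM in fdx1b-/- larvae, a 4.16-fold difference. All of its sibling values lay close together. For the gene with the identifier ENSDARG00000068947, which has only a clone name, the values were 1.36, 0.767 and 1.27 CPM in siblings and 5.2, 4.81 and 3.26 CPM in fdx1b-/- larvae, with fdx1b-/- replicate 3 lowest among the mutants, and zgc:112964 had 4.79, 3.29 and 4.32 CPM in siblings and 12, 10.4 and 8.9 CPM in fdx1b-/- larvae. The next, zgc:153913, for which RefSeq lists the synonym cpn2, had 12, 10.6 and 13.7 CPM in siblings and 25.9, 26.1 and 26.0 CPM in fdx1b-/- larvae, the mutant group with the smallest coefficient of variation of the 50. The most abundant per kilobase was zgc:123103, at 112, 104 and 133 CPM in siblings and 209, 212 and 215 CPM in fdx1b-/- larvae.

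The other 5 were si:dkey-35h6.1, si:dkey-242h9.3, si:dkeyp-73d8.6, si:ch211-137i24.12 and zgc:194839, with log2 ratios from 0.74 to 0.91. In si:dkey-242h9.3, sibling replicate 3 at 2.05 CPM lay 72.4% of the way to the mutants. Genes numbered in the same series as si:dkeyp-73d8.6, which had 0.80 (SE 0.17), had log2 fold changes of 0.69 (SE 0.20) for si:dkeyp-73d8.9, 0.70 (SE 0.16) for si:dkeyp-73d8.8, 0.77 (SE 0.38) for si:dkeyp-73d8.5, 0.33 (SE 0.14) for si:dkeyp-73d8.13 and -0.02 (SE 0.49) for si:dkeyp-73d8.4. EdgeR called 0 of these 5 relatives, 3 were higher at an unadjusted p under 0.05, and DESeq2 called 1.

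Families of the members were followed through 29 name patterns, drawn up after the members were known. The patterns for mthfd1a, slc25a38a, kcnk3b and capn3b matched only the member itself. The relatives counted here therefore leave out mthfd1l, which was called higher (2.64, SE 0.17). Of 99 tested relatives that are no members, 2 were called higher (2.02%) and 6 lower (6.06%), their median log2 fold change was -0.03, and 40 lay above 0. The members stand high by selection, so their distance from these relatives is a description.

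**Figure D4:**
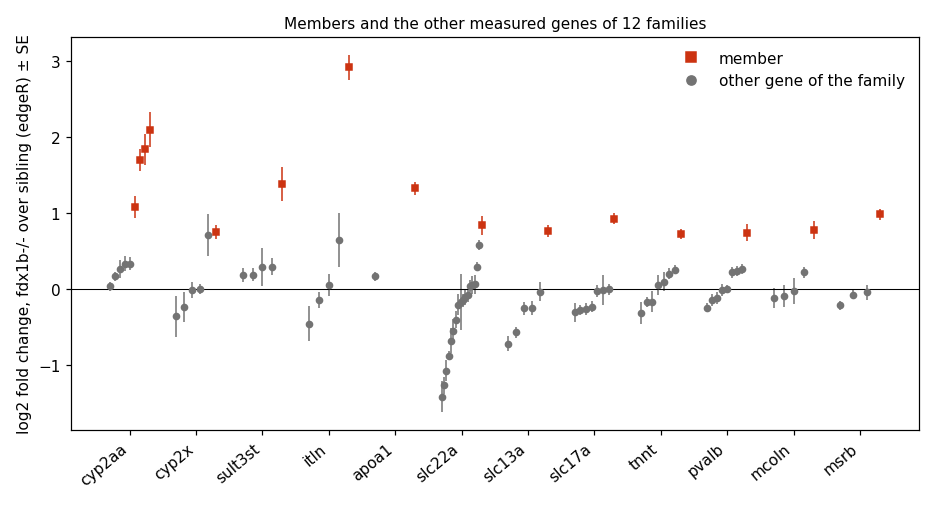
Log2 fold change of fdx1b-/- larvae over siblings from edgeR, with its standard error as bars, for the members (red squares) and the other tested genes (grey circles) of 12 gene families named on the horizontal axis. The members lie above nearly all of their relatives by selection; most relatives lie between -0.5 and 0.5, and the lowest are SLC22 genes down to -1.42.

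Near the limits of the rule the values ran on without a gap. The members with the smallest log2 ratio were snx10a (0.72), tnnt3a (0.73) and lgals3bp.2 (0.73). The genes just outside it were si:dkeyp-73d8.9 (0.698), si:ch1073-143l10.2 (0.698) and tmed1a (0.695), which met the other conditions. A mean level under 2 CPM was the only failing of 6 genes, and 1 gene, the actin gene actc1c, failed only because its groups overlapped, with 1.22, 1.64 and 6.57 CPM in siblings and 4.69, 9.64 and 4.79 CPM in fdx1b-/- larvae.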

How the data were processed

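Larvae were pooled and total RNA was extracted, depleted of ribosomal RNA and sequenced by the authors. They mapped the reads onto GRCz10 with STAR (version 2.4.0i per the labels) and deposited raw exonic counts per Ensembl gene, from reads that mapped to a single place, together with the exon length; the use of strand in counting is not given in the sources used here. The deposited counts were not normalized. Totals were 49908095, 18247332 and 40059199 for siblings and 37099965, 40765917 and 43594050 for fdx1b-/- larvae; no row names a total.

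The members and the gene lists were chosen with earlier results of these data known. CPM used the column sums. The counts were tested in R 4.3.3 with edgeR 4.0.16 (TMM, filterByExpr, quasi-likelihood F test, Benjamini-Hochberg adjustment over 26544 genes), which was tested on simulated data. DESeq2 1.42.0, other scalings and filters, other limits of the rule, and pools left out in turn were the alternatives. Each standard error is the fold change on the log2 scale divided by the root of F. P-values set the difference between genotypes against the spread between pools. The labels number the replicates 1 to 3 in both genotypes; the numbers were not used as pairs. Names came from the study's tables and a gene name table, which matched 25925 of 31388 identifiers and 47 of 50 members; chromosomes and gene order came from the RefSeq table of GRCz12tu, with no coordinates. Every named member appears in its role group, with values per pool for the 12 largest ratios, the 3 most abundant per kilobase and 2 of each group, and lists name up to 4 called genes. Relatives, neighbours and other genes were chosen after their values were seen. The floors cover counting error only, whereas the SDs and standard errors include the spread between pools. Intronic counts, sequences and the targeted gene were not analysed here.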

Additional observations from a re-analysis of the deposited data

How the results depend on the processing

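The number of genes called higher (164) and lower (132) became 440 and 445 with the Wald test of DESeq2, and 480 and 504 at an adjusted p of at most 0.05. Leaving out 1 pool at a time gave 49 to 280 higher and 59 to 342 lower, the largest without sibling replicate 3 (280 and 342) and sibling replicate 2 (259 and 235). With the other scalings, low-count filters and the robust fit the counts were 163 to 244 and 129 to 190. Of the 50 members, 43 were called; the alternatives that kept all pools called 38 to 48, and those that left one out called 25 to 47.

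A fit with the replicate number as a block called 95 higher and 107 lower. Deviations from the group means had correlations of -0.14, -0.14 and 0.09 between same-numbered pools. Pools of different numbers had -0.16 to 0.22. Centring on the means of 3 pools ties these correlations to each other, so they cannot decide whether the numbers pair the pools.

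The number of genes meeting the rule fell from 50 to 16 with a log2 ratio of at least 1. Under CPM from TMM or DESeq2 scaling it was 50 and 52, with mean CPM of at least 1 or 5 it was 54 and 39, and with pseudocounts of 0.1 and 2 it was 65 and 35. Leaving out 1 pool gave 39 to 67, of which 36 to 49 were members. The median log2 ratio of the genes meeting the rule was 0.83 to 0.90 in these alternatives, except a log2 ratio of at least 1, for which it was not computed. No single member's ratio changed sign in any alternative. With a pool left out this follows from the selection, since every fdx1b-/- value lies above every sibling value. Single pools did move the ratios: leaving out 1 pool gave 1.87 to 2.59 for cyp2aa8 and 0.89 to 1.69 for slc41a2a. The cause of these changes was not tested. A level under 0.164 CPM could not be told from 0 in the smallest library.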
